A study of Homo sapiens with 6 samples.

Results

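The genes described here are 10 members of the Hippo-YAP pathway and its target set, among 18417 genes read by a probe set with a single gene symbol. They are the kinases LATS1 and LATS2, the scaffold AMOTL2, the coactivators YAP1 and WWTR1 (whose protein is called TAZ), the DNA-binding factors TEAD1 and TEAD4, and the target genes CCN1, CCN2 and ANKRD1. All 10 were chosen by name, each was read by 1 probe set, and none was shared with another gene. They and the gene lists set beside them below were chosen with earlier results of these data known. The arrays measured RNA that was immunoprecipitated together with AGO2, an Argonaute protein that carries microRNAs, from the androgen-independent prostate cancer cell line PC3. On 3 of them the cells carried a transfected mimic of miR-205, on the other 3 a negative control mimic, and the submitters describe the samples of a group as biological replicates. Both groups went through the same immunoprecipitation, and arrays of total input RNA were not analysed here. A transcript's abundance in the cells and its recovery with AGO2 therefore cannot be told apart, nor can fewer cells expressing a gene and less RNA per cell.

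In the Hippo pathway, the upstream kinases STK3 and STK4 activate LATS1 and LATS2, which phosphorylate YAP1 and TAZ and keep them out of the nucleus. Unphosphorylated YAP1 and TAZ enter the nucleus, bind TEAD factors and switch on genes such as CCN1, CCN2, ANKRD1 and AMOTL2. LATS2 and AMOTL2 restrain YAP1 and are themselves target genes of it, which makes them part of a negative feedback loop. CCN1 and CCN2 encode secreted matricellular proteins and are also immediate-early genes, which respond to serum, stress and cytokines within a short time.

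The mature 5p sequence of miR-205 and the promoters of target genes, searched for the TEAD motif, are shown first. The sample titles name the transfected microRNA as miR-205 without an arm, so the 5p arm is taken here as the one meant. RefSeq gives the 5p arm of miR-205 at chr1:209432166-209432187 (GRCh38.p14, plus strand), with the seed, bases 2 to 8, in capitals.
hsa-miR-205-5p: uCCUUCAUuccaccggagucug
None of the other mature human microRNAs in the same table, which holds 2370 names in all, had this seed.

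Promoter windows of 300 bases, from 250 before to 50 after a transcription start, were found in RefSeq for 7 of the 10 genes (TEAD1, TEAD4 and CCN1 had no match). They were searched on both strands for GGAATG, the core motif of TEAD factors, which overlaps no other motif searched. The CCN2 window held 3 copies, with first bases 169, 104 and 95 before the start, all on the strand of the gene. The ANKRD1 window held 2 copies, 220 and 128 before the start, and 1 of the AMOTL2 windows held 1 copy on the opposite strand (CATTCC), 69 before its start. Of 35116 windows of this length in the table, 14% held at least 1 copy, 1.37% at least 2 and 0.128% at least 3. The YAP1 window had 1 copy before the start and the LATS2 window 1 copy after it, and those of WWTR1 and LATS1 had none of these letters. The CArG box, the motif of the serum response factor SRF, was in none of the members' windows and in 1.29% of all. The 250 bases before the start are given for CCN2, ANKRD1 and AMOTL2, the target genes with the motif upstream of the start, with it in capitals, all on the minus strand of GRCh38.p14 and read in the direction of the gene. A match of letters is a description and does not show that a factor binds there.
CCN2, chr6:131951373-131951622: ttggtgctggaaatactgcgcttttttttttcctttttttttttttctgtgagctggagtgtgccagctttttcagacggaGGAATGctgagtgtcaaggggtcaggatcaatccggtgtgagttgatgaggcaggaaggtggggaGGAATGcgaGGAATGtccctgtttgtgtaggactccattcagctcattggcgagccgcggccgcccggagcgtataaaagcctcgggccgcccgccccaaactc
ANKRD1, chr10:90921088-90921337: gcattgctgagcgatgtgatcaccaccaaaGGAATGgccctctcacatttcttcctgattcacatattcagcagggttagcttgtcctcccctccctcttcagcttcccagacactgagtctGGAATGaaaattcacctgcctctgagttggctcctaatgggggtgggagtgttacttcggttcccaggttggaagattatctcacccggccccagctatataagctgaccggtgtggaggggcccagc
AMOTL2, chr3:134374448-134374697: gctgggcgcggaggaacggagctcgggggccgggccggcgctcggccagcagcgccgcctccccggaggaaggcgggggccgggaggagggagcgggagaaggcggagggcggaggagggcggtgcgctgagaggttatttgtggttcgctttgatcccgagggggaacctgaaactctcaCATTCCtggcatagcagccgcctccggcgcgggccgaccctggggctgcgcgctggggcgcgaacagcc

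With miR-205, the target gene ANKRD1 rose 1.98-fold in the AGO2 immunoprecipitate, while the coactivator gene WWTR1 and the factor gene TEAD1 fell. The target genes CCN1 and CCN2 were at a high level in all 3 miR-205 arrays and in 1 of the 3 control arrays, replicate 2, and at a low level in the other control arrays. YAP1 itself stood near the same level in all 6 arrays. At an adjusted p under 0.05 in limma, 1 of the 10 genes rose, 2 fell and 7 did not pass, or 30% called, against 26.6% of all genes (12.6% higher and 14% lower). That share is near the background and is not a result about these genes as a set. Their median log2 difference was -0.10, against -0.02 over all genes. Without negative control replicate 2, 4 rose and 3 fell, while 30.1% of all genes were called (14.5% higher and 15.6% lower). That array is singled out by its values for some of these same genes. The differences, errors and p-values without it, here and below, therefore describe a selected set of arrays and are not separate evidence of a change. The groups did not overlap for 4 of the 10 genes and for 42.2% of all genes.

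**Figure D1:**
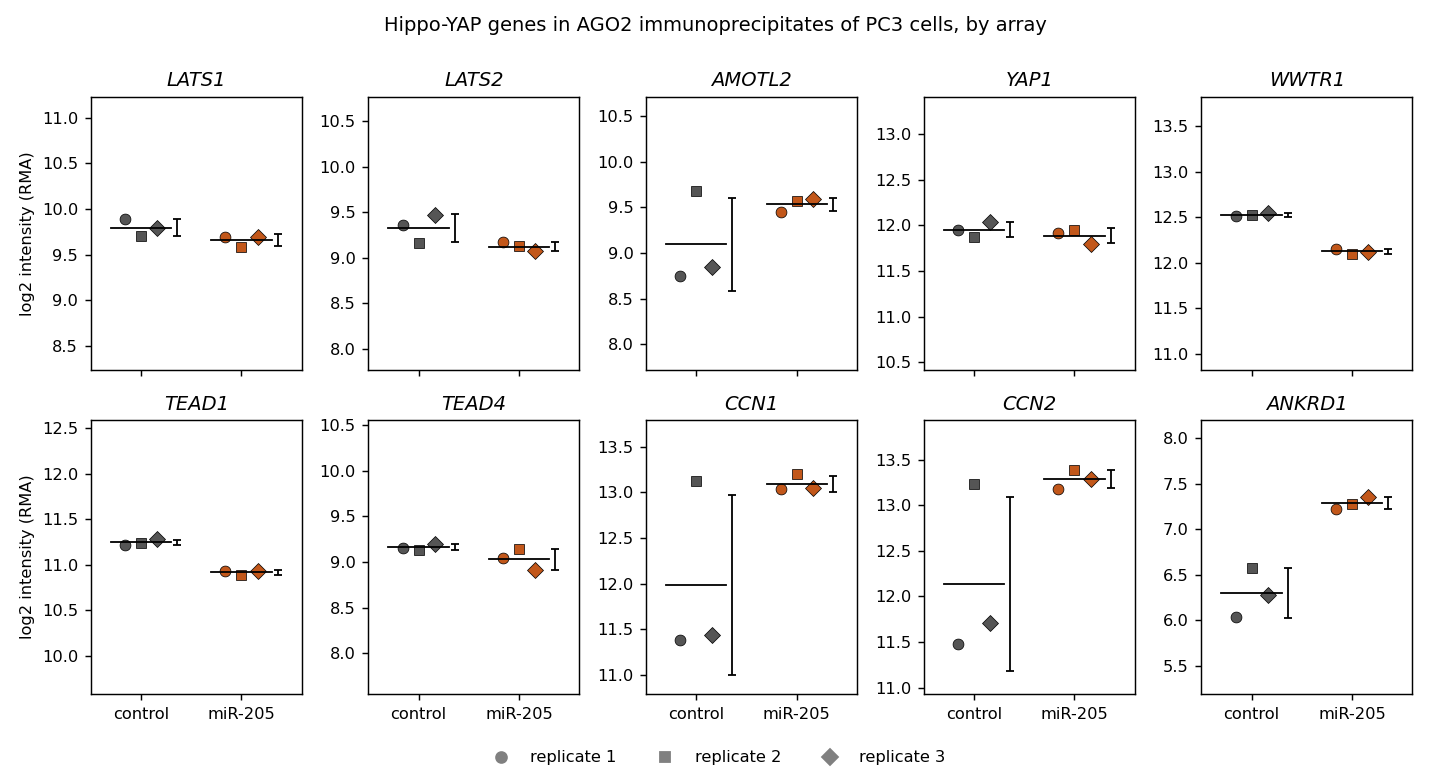
Log2 intensity of the 10 genes in each array (vertical axes, each spanning 3 log2 units) for control (grey) and miR-205 (orange) arrays, with marker shape for the replicate number, a line at the mean and a bar of 1 SD (n = 3). Control replicate 2 (grey square) lies with the miR-205 arrays for CCN1, CCN2 and AMOTL2, while WWTR1, TEAD1 and ANKRD1 separate the groups.

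Among the kinases, LATS1 read 9.70, 9.58 and 9.69 in miR-205 replicates 1 to 3 and 9.89, 9.70 and 9.79 in the control replicates, as log2 intensities. The groups only just failed to overlap, and the log2 difference of -0.14 ± 0.07 (SE, n = 3 per group) did not pass (limma adjusted p = 0.187, 95% interval -0.30 to 0.02). LATS2 read 9.17, 9.13 and 9.07 with miR-205 and 9.36, 9.16 and 9.47 in the controls. Control replicate 2 was again the lowest control and lay among the miR-205 arrays. The difference of -0.21 ± 0.08 did not pass (adjusted p = 0.106), and it was -0.29 ± 0.07 without that array (adjusted p = 0.014, 0.0468 to 0.288 over the other alternatives).

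The coactivators behaved unequally. YAP1 read 11.92, 11.95 and 11.79 with miR-205 and 11.95, 11.87 and 12.03 in the controls. The arrays of the groups were interleaved, with a log2 difference of -0.07 ± 0.07 (adjusted p = 0.538) and a 95% interval from -0.23 to 0.09. WWTR1 read 12.16, 12.10 and 12.12 with miR-205, all below the controls at 12.51, 12.52 and 12.54. The SD was 0.03 in the miR-205 group and 0.02 in the control group, and the gene fell by 0.40 ± 0.06 on the log2 scale (adjusted p = 0.00112), a level 1.32-fold higher in the controls. Control replicate 2 sat with the other controls for WWTR1.

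Of the TEAD genes, TEAD1 read 10.93, 10.89 and 10.94 with miR-205 against 11.22, 11.24 and 11.28 in the controls. The groups were apart by far more than either spread, and TEAD1 fell by 0.33 ± 0.06 (adjusted p = 0.00317), 1.25-fold. TEAD4 read 9.04, 9.14 and 8.91 with miR-205 and 9.15, 9.14 and 9.20 in the controls. Its lowest value was miR-205 replicate 3, the groups met at 9.14, and the difference of -0.13 ± 0.07 did not pass (adjusted p = 0.218). The other members of the family, TEAD2 and TEAD3, named after their values were seen, fell by 0.27 ± 0.07 (adjusted p = 0.0179) and 0.33 ± 0.07 (adjusted p = 0.00665). The call of TEAD2 was lost without miR-205 replicate 2 (adjusted p = 0.065), miR-205 replicate 3 (0.0697) or control replicate 3 (0.0589). Differences between the 4 family members were not tested.

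The target genes showed the widest spread. CCN1 read 13.04, 13.20 and 13.05 with miR-205 and 11.38, 13.13 and 11.44 in control replicates 1, 2 and 3. Control replicate 2 lay inside the miR-205 range and 1.72 above the mean of the other controls. CCN1 had a log2 difference of 1.11 ± 0.39 over all 6 arrays, which did not pass (adjusted p = 0.0685), and of 1.68 ± 0.07 without control replicate 2, a 3.21-fold rise (adjusted p = 5.06e-06). With any other array left out the adjusted p lay between 0.134 and 0.22.

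CCN2 repeated this layout with 13.18, 13.38 and 13.29 under miR-205 and 11.48, 13.23 and 11.71 in the controls. Control replicate 2 was 1.64 above the mean of the other controls. The difference of 1.15 ± 0.38 missed the threshold (adjusted p = 0.0542). It was 1.69 ± 0.09 without that array, or 3.23-fold (adjusted p = 1.34e-05), and with any other array left out the adjusted p was 0.106 to 0.181. Weighting the arrays and adding the replicate number as a block each called both genes higher, with adjusted p-values of 0.0116 and 0.0316 for CCN1 and 0.00929 and 0.0245 for CCN2. A robust variance with a trend called neither (0.247 and 0.219).

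ANKRD1, an ankyrin repeat protein of muscle and wounded tissue, read 7.22, 7.28 and 7.35 with miR-205 and 6.03, 6.58 and 6.28 in the controls. Control replicate 2 was the highest control, 0.42 above the mean of the others, yet below every miR-205 array. ANKRD1 rose by 0.99 ± 0.12 (adjusted p = 0.00067), and by 1.13 ± 0.09 without control replicate 2 (adjusted p = 7.47e-05). Its control mean of 6.30 lay close above 6.04, a mark of dim signal (341 olfactory receptor genes gave this value as their 95th percentile), so the size of the rise is less certain than its direction.

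AMOTL2, an angiomotin-family scaffold that holds YAP1 in the cytoplasm, read 9.45, 9.57 and 9.59 with miR-205 and 8.75, 9.68 and 8.85 in the controls. Control replicate 2 was above all 3 miR-205 arrays. The difference was 0.44 ± 0.21 (adjusted p = 0.16), and 0.73 ± 0.07 or 1.66-fold without that array (adjusted p = 0.000204, 0.0388 to 0.425 over the other alternatives).

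**Figure D2:**
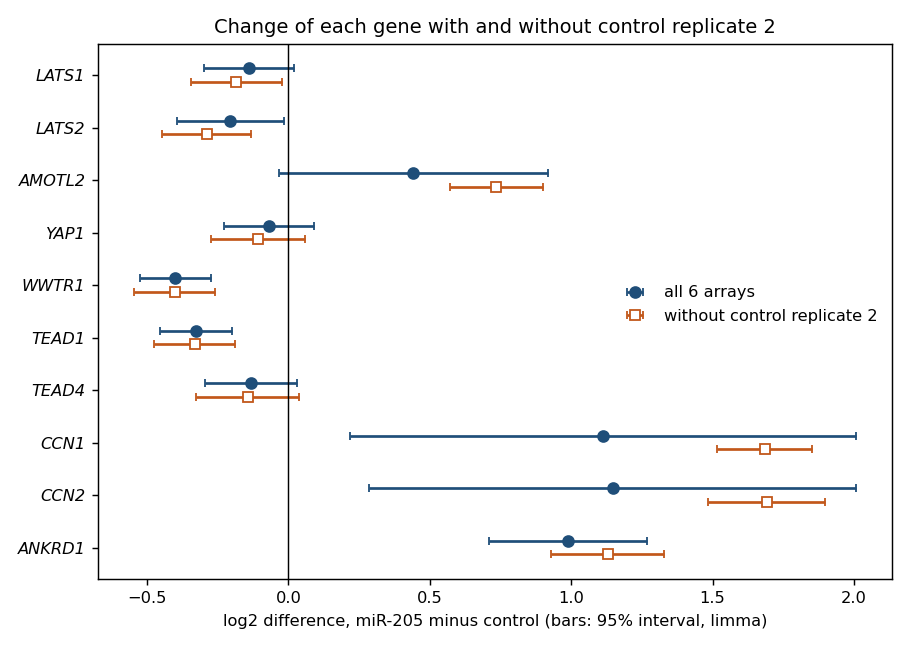
Log2 difference, miR-205 minus control, for each gene with its 95% interval from limma, over all 6 arrays (filled circles) and without control replicate 2 (open squares). The intervals of CCN1, CCN2 and AMOTL2 shrink when that array is left out, and CCN1 moves from 1.11 to 1.68, while WWTR1 and TEAD1 stay at -0.40 and -0.33.

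Control replicate 2 was compared with the other controls as a description, since a single array has no replicate. Of all genes, 0.266% (49) were at least 2-fold above the mean of the other controls in that array, and 0.0163% (3) at least 2-fold below. For control replicates 1 and 3 the corresponding number above was 0. CCN1 and CCN2 were among the 49 genes, and AMOTL2, 0.88 above, fell short of that mark. Of 21 measured immediate-early genes, 7 were among the 49, including ZFP36, an RNA-binding protein of AU-rich elements, at 2.36 above.

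The genes whose profile over the 6 arrays lay closest to that of CCN1 were sought among 13580 genes above the dim level that are not members, each profile taken about its own mean. They were PLK2, PTGER4, NFKBIA and NFKBIZ, with root mean square distances of 0.0653, 0.0879, 0.121 and 0.132 log2 units over 6 arrays. PLK2 read 11.83, 12.04 and 12.01 with miR-205 and 10.23, 11.92 and 10.37 in the controls. Its high replicate 2 follows from a selection on closeness over these same arrays and is not a separate observation. For LATS2 the closest were MEPCE (0.0124), SMCR8 (0.0166), PRB3 (0.0167) and AMER1 (0.0207). LATS2 varied little over the arrays, and by the same selection so did these genes. MEPCE read 9.24, 9.20 and 9.13 against 9.44, 9.20 and 9.54.

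Among other regulators of the pathway, 37 of 41 listed genes were measured, of which 16 fell, 4 rose and 17 did not pass. That is 54.1% called, against 26.6% of all genes, dim ones included, with a median log2 difference of -0.19 against -0.02. Of the 37 genes, 34 were above the dim level, against 13590 of all 18417 genes. The shares therefore rest on different mixes of dim and brighter genes. The gap between them is not read as a result about this list. FAT4, an atypical cadherin, fell by 1.21 ± 0.09 (adjusted p = 5.55e-05), with 6.85, 6.93 and 6.77 under miR-205 and 7.89, 8.08 and 8.20 in the controls. MAP4K4, a kinase that phosphorylates LATS kinases in parallel with STK3 and STK4, fell by 0.90 ± 0.06 (adjusted p = 3.77e-05). The LATS-related kinase gene STK38L fell by 0.73 ± 0.06 (adjusted p = 0.000109) and WWC3, a KIBRA-family scaffold, by 0.70 ± 0.08 (adjusted p = 0.000561).

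Further genes of this list were picked out after their values were seen. WWC1 (KIBRA) fell by 0.42, WWC2 by 0.55 and NF2, the membrane-linked activator merlin, by 0.37. In the other direction, the kinase gene TAOK3 rose by 0.68 and MOB1A, a LATS cofactor, by 0.42. With each array left out in turn, 11 to 15 of the 37 genes fell and 3 to 5 rose, while 1777 to 2881 of all genes fell and 1588 to 2668 rose. Without control replicate 2, 13 of the 37 fell, and 2881 of all genes. The core kinase genes differed: STK4 rose by 0.24 (adjusted p = 0.0209), a call lost without miR-205 replicate 1 or 2 or control replicate 1 or 3 (0.0507 to 0.082), and STK3 had a difference of 0.05 (adjusted p = 0.59).

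**Figure D3:**
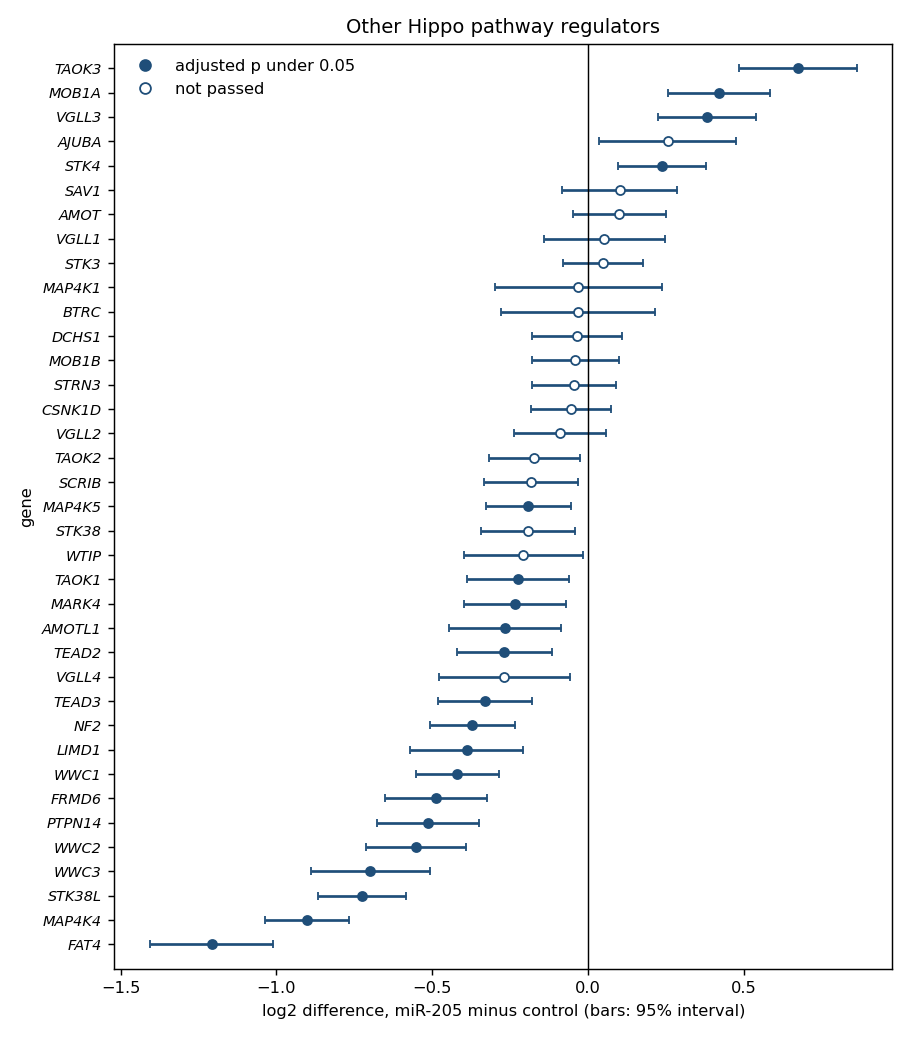
Log2 difference, miR-205 minus control, of 37 other Hippo pathway regulators with 95% intervals from limma, filled where the adjusted p was under 0.05. Filled points lie mostly to the left of 0, from FAT4 at -1.21, and 4 filled points, led by TAOK3 at 0.68, lie to the right.

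The remaining genes of a published YAP/TAZ target signature did not move as 1 group. Of 17 genes, all measured, 1 rose, 7 fell and 9 did not pass. That is 47.1% called, against 26.6% of all genes, dim ones included (12.6% higher and 14% lower), with a median of -0.17 against -0.02. All 17 genes were above the dim level, against 13590 of all 18417 genes. The share called in this list is therefore not compared with a like background, and no excess is read from it. NT5E, the ectonucleotidase CD73, fell by 1.72 ± 0.07 (adjusted p = 6.7e-06), PTPN14, a phosphatase that binds YAP1 and also stands in the list of regulators, by 0.51 ± 0.07 (adjusted p = 0.00122), the RNA-binding protein gene RBMS3 by 0.35 and the Rac exchange factor gene DOCK5 by 0.33. The gene that rose was F3, tissue factor, by 0.42 ± 0.13 (adjusted p = 0.0414), and it lost its call without any 1 array other than control replicate 2 (adjusted p = 0.0752 to 0.141). Without control replicate 2, 3 genes rose and 4 fell, while 30.1% of all genes were called. Leaving out miR-205 replicate 1 or 3 or control replicate 3 also left 4 that fell, and no single array left out gave more than 6.

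The 3 that rose without control replicate 2 were F3, NUAK2 and GADD45A, named after their values were seen. NUAK2, a stress-responsive kinase, read 9.98, 10.24 and 10.15 with miR-205 and 7.32, 10.52 and 7.47 in the controls. It was 3.13 above the other controls in replicate 2, higher than in any miR-205 array. Its difference was 1.69 ± 0.71 over all arrays (adjusted p = 0.119) and 2.73 ± 0.09 without that array (adjusted p = 1.3e-06, 0.0227 to 0.337 over the other alternatives). GADD45A, a stress-induced growth arrest gene, read 10.98, 11.14 and 11.00 against 10.18, 11.08 and 10.01, with a difference of 0.61 ± 0.23 (adjusted p = 0.0881) and 0.94 ± 0.08 without replicate 2 (adjusted p = 0.000115, 0.0174 to 0.267 over the other alternatives).

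**Figure D4:**
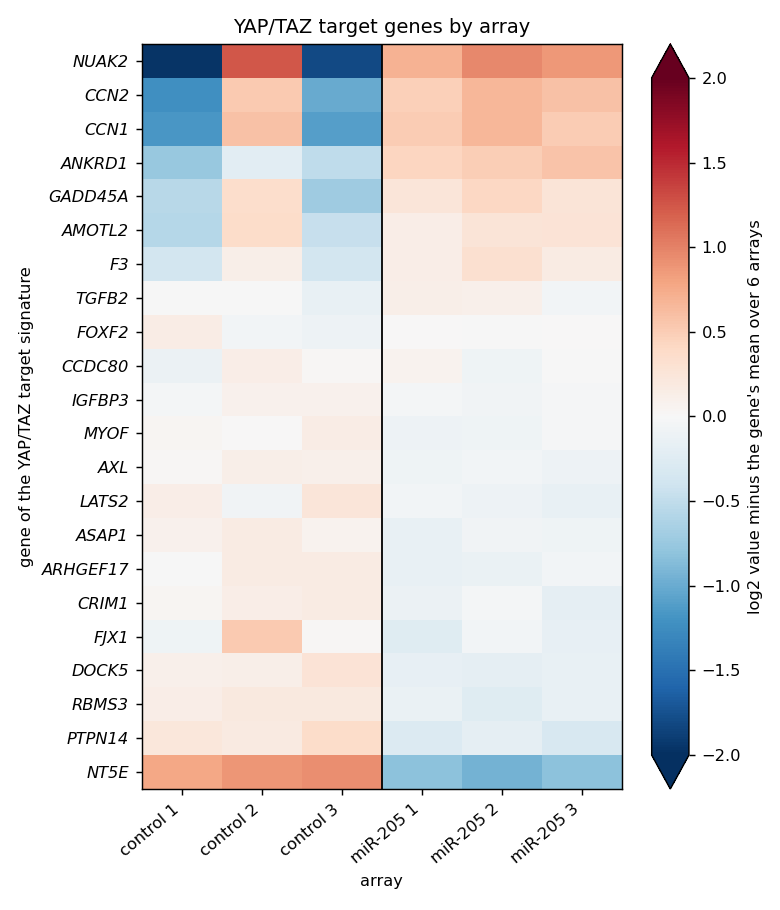
Log2 value of each YAP/TAZ signature gene minus its own mean over the 6 arrays (colour), with 1 row per gene and 1 column per array, including the members CCN1, CCN2, ANKRD1, AMOTL2 and LATS2, ordered by log2 difference. NUAK2, CCN1 and CCN2 are high in control 2 and in the miR-205 arrays, and NT5E is lower in all miR-205 arrays with a difference of -1.72.

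The other CCN genes did not share the layout of CCN1 and CCN2. CCN3 read 9.89, 9.84 and 10.10 with miR-205 and 10.48, 10.68 and 10.56 in the controls, and it fell by 0.63 ± 0.09 (adjusted p = 0.00105). CCN4 (-0.09), CCN5 (-0.13) and CCN6 (0.05) did not pass, and CCN6 was dim in both groups, with means of 4.72 and 4.66.

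Actin and SRF-linked genes are another set that responds to the cytoskeleton. Of 22 listed genes, 19 were measured, 4 rose, 3 fell and 12 did not pass. The share called, 36.8%, compares with 26.6% of all genes, and the median was 0.06 against -0.02. No more is read from this count. CNN2 (calponin 2) rose by 0.69, CALD1 (caldesmon) by 0.46, SRF by 0.41 ± 0.09 and CNN1 by 0.25, with adjusted p-values of 0.000115, 0.00169, 0.01 and 0.00988. The 3 that fell, named after their values were seen, were MRTFB by 0.27, MYH9 by 0.29 and CNN3 by 0.18. Their adjusted p-values were 0.0114, 0.0149 and 0.0414. SRF read 10.54, 10.66 and 10.62 with miR-205 and 10.07, 10.40 and 10.13 in the controls, where replicate 2 was the highest. Without miR-205 replicate 1, 1 gene of this list fell.

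CCN1 and CCN2 are immediate-early genes by their textbook description, so other genes of that class were set beside them. Of 21 measured, all above the dim level, 13 rose and 0 fell, or 61.9% called, with a median of 0.62. Of all genes, dim ones included, 12.6% rose and 14% fell. These counts were 18 and 0 without control replicate 2, where 14.5% of all genes rose and 15.6% fell, and 8 rose when miR-205 replicate 2 or 3 or control replicate 1 or 3 was left out. EGR1, a zinc finger factor, rose by 2.40 ± 0.23 (adjusted p = 0.000192), the orphan receptor genes NR4A2 by 2.60 and NR4A3 by 0.50, and FOS by 0.65. In control replicate 2, 20 of the 21 genes were above both other controls, as were 4 of the 10 Hippo-YAP genes, against 33.9% of all genes. The part of this shared movement in the values of CCN1, CCN2 and AMOTL2 was not tested.

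Across the series, array medians lay between 6.82 and 6.86, and pairs of miR-205 arrays differed by an SD of 0.131 to 0.146 over genes. Control replicate 2 differed from the other controls by 0.215 and 0.218, against 0.155 between those. Prostate epithelial markers were above the dim level for 5 of 5 genes (KRT8, KRT18, KRT19, EPCAM and HOXB13). Their mean was 11.3 in each miR-205 array and 10.7 to 10.8 in the controls, but the genes did not move one way. EPCAM (2.29), KRT8 (0.89) and KRT18 (0.55) rose, HOXB13, a prostate lineage factor, fell by 0.73 (adjusted p = 0.000592), and KRT19 (-0.03) did not pass. Of the markers of other cells, both group means were dim for 4 of 6 leukocyte, 3 of 7 fibroblast, 3 of 5 endothelial and 2 of 4 luminal prostate genes. Mean levels of these 4 lists lay at 5.82 to 5.85 against 5.86 to 5.93 (leukocyte), 5.45 to 5.60 against 5.46 to 5.56 (fibroblast), 6.03 to 6.11 against 6.42 to 6.55 (endothelial) and 5.50 to 5.52 against 5.36 to 5.46 (luminal), for miR-205 and control arrays. Their part in the results was not tested.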

How the data were processed

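The authors deposited log2 intensities. Per the submitters' processing notes these came from RMA, run in Affymetrix Expression Console (version 1.1.2). Other settings are not given in the sources used here. The values were used as deposited. Of 33297 probe sets, 19460 had a single gene symbol in the platform annotation and 1754 had several, which named no gene. A gene with several probe sets was read from its brightest by mean over all arrays, which gave 18417 genes.

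The fit used limma (version 3.58.1, R 4.3.3) with lmFit, eBayes and no covariate. Tests were two-sided, adjusted by Benjamini-Hochberg across the 18417 genes, at a threshold of 0.05. The steps were tested on simulated data with independent noise in each gene and array. These held no control array in which many genes moved together, so they do not bear on control replicate 2. The number of arrays limits the precision.

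The members and lists were chosen with earlier results of these data known. Genes named were the members, up to 4 per list with the smallest p, the CCN family and the 4 closest profiles of CCN1 and of LATS2, while others are marked or stand as examples. Alternatives covered normalization, dim genes, probe set choice, variance, array weights, a replicate block and leaving out each array.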

Additional observations from a re-analysis of the deposited data

How the results depend on the processing

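WWTR1, TEAD1 and ANKRD1 kept their direction and passed under all 14 alternatives, and none of the 10 genes reversed. Of the 10 genes, 1 rose with all arrays. This count was 2 with dim genes left out, 4 with array weights and 3 with the replicate block, and ranged from 1 to 4 with 1 array left out (4 only without negative control replicate 2). Of the YAP/TAZ signature, the 1 gene higher became 0 with repeated quantile normalization or when every probe set was tested, 3 with array weights, 2 with the replicate block, and 0 to 3 with 1 array left out. Its 7 lower genes became 4 when every probe set was tested and 4 to 6 with 1 array left out. The corresponding counts over all genes were 2586 lower with all arrays, 1886 when every probe set was tested and 1777 to 2881 with 1 array left out. Testing every probe set left 8 immediate-early genes higher, and 8 to 18 were higher with 1 array left out. SRF and actin genes lower numbered 1 to 2 with 1 array left out. Same-numbered arrays of the groups deviated together only weakly (r = 0.0626, 0.0912 and 0.0103 over genes). Values this small cannot decide whether arrays with the same number were handled as pairs. Each miR-205 array correlated best with its own number, and control replicate 3 did not. The cause of these shifts was not tested, and the dimmest gene of the set, ANKRD1, limits the size of its own change.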

Other observations

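The endothelial genes PECAM1 and KDR, picked out after their values were seen, were lower with miR-205. PECAM1, a cell adhesion molecule, read 6.27, 6.37 and 6.28 with miR-205 and 7.06, 7.44 and 7.35 in the controls, a log2 difference of -0.98 ± 0.10 (limma adjusted p = 0.000227) on its brightest probe set. Averaged over its probe sets, the difference was -0.52 ± 0.07 (adjusted p = 0.000815). KDR, a receptor for vascular endothelial growth factor, read 7.61, 7.52 and 7.96 against 8.48, 8.51 and 8.92, a difference of -0.94 ± 0.14 (adjusted p = 0.00184). The other 3 endothelial markers did not pass.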
